A study of Mus musculus with 4 samples.

Results

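The 10 genes of hormone storage and prohormone processing followed here, all found by symbol among the 31053 genes counted, were measured in mouse duodenal crypt cells: the granins Chga, Chgb, Scg2, Scg3 and Scg5, the convertases Pcsk1 and Pcsk2, the inhibitor gene Pcsk1n, the carboxypeptidase gene Cpe and Scgn. Their UMIs (unique molecular identifiers, each standing for 1 captured RNA molecule) were summed per cell type and library over the cells kept in the authors' tables. Levels are given as CPM, the UMIs of a gene divided by all UMIs of that sum and scaled as counts per 1000000. Because 1 molecule is counted once at its 3' end, levels were not divided by transcript length, and they were compared between genes on this per-molecule scale.

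Cells came from duodenal crypts of mice carrying the Rosa26 Tomato reporter (R26RTom), and living TOM+ cells were sorted. WT libraries came from Atoh1CreER-T2;R26RTom mice and APC-KO libraries from mice labelled Atoh1Cre;Apcfl/fl;R26RTom, for which the series text gives the inducible Atoh1CreER-T2, with 2 libraries per genotype. All mice had received 2 doses of 1 mg/mL tamoxifen 24 h apart and were sampled 12 h after the last, so that tamoxifen is shared by both groups. Atoh1 is a gene of the secretory lineage, and the driver and the sort set which cells were collected. The labels give no age, sex, batch or number of mice per library, so p-values measure only the spread between these libraries.

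Endocrine cells of the gut store peptides and amines in dense-core granules. Granins are acidic proteins that help to form these granules and are themselves cut into peptides. Prohormones are cut at basic residues by the convertases encoded by Pcsk1 and Pcsk2, and Cpe then trims the exposed basic residues. Scg5 encodes 7B2, a chaperone of the Pcsk2 product, and Pcsk1n encodes proSAAS, an inhibitor of the Pcsk1 product. Scgn encodes secretagogin, a calcium-binding protein of endocrine cells.

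The authors named 12 cell types, and their names are used as deposited. The 3 endocrine types were EC, NON-EC and EEC-PRE. EC sums held Tph1, which makes serotonin, at 1408.5 to 2089 CPM and Tac1 at 2463 to 4801 CPM, against at most 40.7 and 174 CPM in the other endocrine sums. NON-EC sums held the peptide genes Gip, Cck, Ghrl and Sst. EEC-PRE sums held Neurog3, the factor that commits cells to the endocrine fate, at 1275 to 2170 CPM, against 508 to 677 CPM in EC. Some marker genes went another way. Sct, on the NON-EC marker list, was at 4038 to 4267 CPM in EC and 1262 to 2728 CPM in NON-EC, where Nts reached at most 24.7 CPM. Neurod1, on the EEC-PRE list, was at 545 to 792 CPM in EEC-PRE and 1181 to 1470 CPM in EC. The EEC-PRE and EC ranges of Rfx6, Insm1 and Pax4, on the same list, overlapped. On the EC list, Ddc was at 684 to 1006 CPM in EC and 404 to 695 CPM in NON-EC. Gch1, also on that list, was at 244 to 533 CPM in EC and 114 to 269 CPM in NON-EC, so both overlapped. The goblet marker list (7 of 7 genes detected in each sum) was also present, at 4315 to 26086 summed CPM, highest in each type in APC-KO replicate 2, and its part in the results was not tested.

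The matrices held 54230249 to 61032126 UMIs per library, and the authors kept 4814 and 3821 WT cells (replicates 1 and 2) and 356 and 6243 APC-KO cells. Kept cells held 5.15% of the UMIs of APC-KO replicate 1, against 37.6% to 50.3% in the others. That library stands apart: its kept EC cells had a median of 6426 UMIs, against 2413 to 3374 in the others, and it gave 45 EC, 13 NON-EC and 15 EEC-PRE cells. The other libraries gave 270 to 387 EC, 188 to 305 NON-EC and 130 to 200 EEC-PRE cells. Kept libraries shared 20 cell barcodes over all 6 pairs, among 15234 cells. Apc levels in endocrine cells ranged from 117 to 130 CPM over WT and from 134 to 137 CPM over APC-KO, but the labels do not give the deleted exons, and a count at the 3' end does not show whether an internal exon is missing.

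The promoters of several of these genes share a short motif, and the stretches that hold it are shown. Its carriers differed in where they were high: Chga, Chgb and Pcsk1 were higher in EC, Scg2 was higher in NON-EC, and the EC and NON-EC ranges of Scg5 overlapped. Pcsk1n, whose promoter window holds no match, was also higher in EC. In the RefSeq table for GRCm38.p6, which gives 250 bases before to 50 after a gene's start, 9 of the 10 genes had an entry. The core of the cyclic AMP response element, TGACGT on either strand, occurred in 5 of the 9 (Chga, Chgb, Scg2, Scg5 and Pcsk1) and in 7.51% of all 32851 promoters in the table. The full palindrome TGACGTCA, which contains that core on both strands, occurred in Chgb, Scg2 and Pcsk1, and in 1.79% of all promoters. It began 72 bases before the start in Chgb, 68 in Scg2 and 78 in Pcsk1. The core motif of Chga began 44 bases before the start and that of Scg5 175 bases before it. The stretches around the first match of each gene, 5' to 3' on the strand of the gene and with the motif in capitals, were as follows.
Chga (chr12:102554886-102554915, plus strand): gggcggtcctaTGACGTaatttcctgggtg
Chgb (chr2:132781559-132781588, plus strand): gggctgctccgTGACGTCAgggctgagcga
Scg2 (chr1:79440076-79440105, minus strand): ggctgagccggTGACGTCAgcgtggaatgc
Pcsk1 (chr13:75089768-75089797, plus strand): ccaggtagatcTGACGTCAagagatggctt
Scg5 (chr2:113829248-113829277, minus strand): aaggaggtaaaTGACGTtcataggggtcga
Those of Chgb and Scg2 overlap an exon annotated in GENCODE vM21, and the others overlap none. Of the other motifs searched on both strands, the E-box CAGATG occurred in none of the 9 promoters and in 17.2% of all, the E-box CAGCTG in 3 and 16.3%, the GC box GGGCGG in 7 and 35.7%, and TATAAA in 1 and 13.6%. A match is a description of these letters and not evidence of a bound site.

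Chgb, encoding the granule protein chromogranin B, was the most abundant transcript of EC cells. It stood at 60622 CPM in WT replicate 1, 54692 in WT replicate 2, 65832 in APC-KO replicate 1 and 49378 in APC-KO replicate 2. It ranked first among all genes in EC sums of each library and made up 4.94% to 6.58% of their UMIs. In NON-EC sums Chgb was at 9039, 6934, 9097 and 5233 CPM in the same order of libraries, ranking between 4 and 9. EC levels lay above NON-EC levels without overlap, by 2.95 ± 0.21 on the log2 scale (SD, n = 4 libraries), or 7.75-fold. The type names rest on the same counts, so levels between types are described and not tested.

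Chga, encoding chromogranin A, showed the same order at a lower level. Its EC levels were 7414, 6549, 8765 and 7377 CPM in WT replicate 1, WT replicate 2, APC-KO replicate 1 and APC-KO replicate 2. Its NON-EC levels were 1379, 1653, 1214 and 1279 CPM. EC exceeded NON-EC in 4 of 4 libraries, by 2.45 ± 0.36 on the log2 scale (SD, n = 4). Chgb UMIs outnumbered Chga UMIs 6.69 to 8.35 times in EC sums and 4.09 to 7.49 times in NON-EC sums. With each cell thinned to 2000 UMIs, 94.0% to 97.2% of EC cells had a Chga UMI and 97.2% to 100% a Chgb UMI (905 cells thinned). Without thinning these shares were 97.1% to 98.2% and 97.8% to 100%. The thinned shares in ISC cells were 0% to 2.71% for Chga and 4.52% to 10.0% for Chgb. In ISC of WT replicate 1, 4 cells held at least 50% of the 1069 Chgb UMIs, and the source of these UMIs was not tested.

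**Figure D1:**
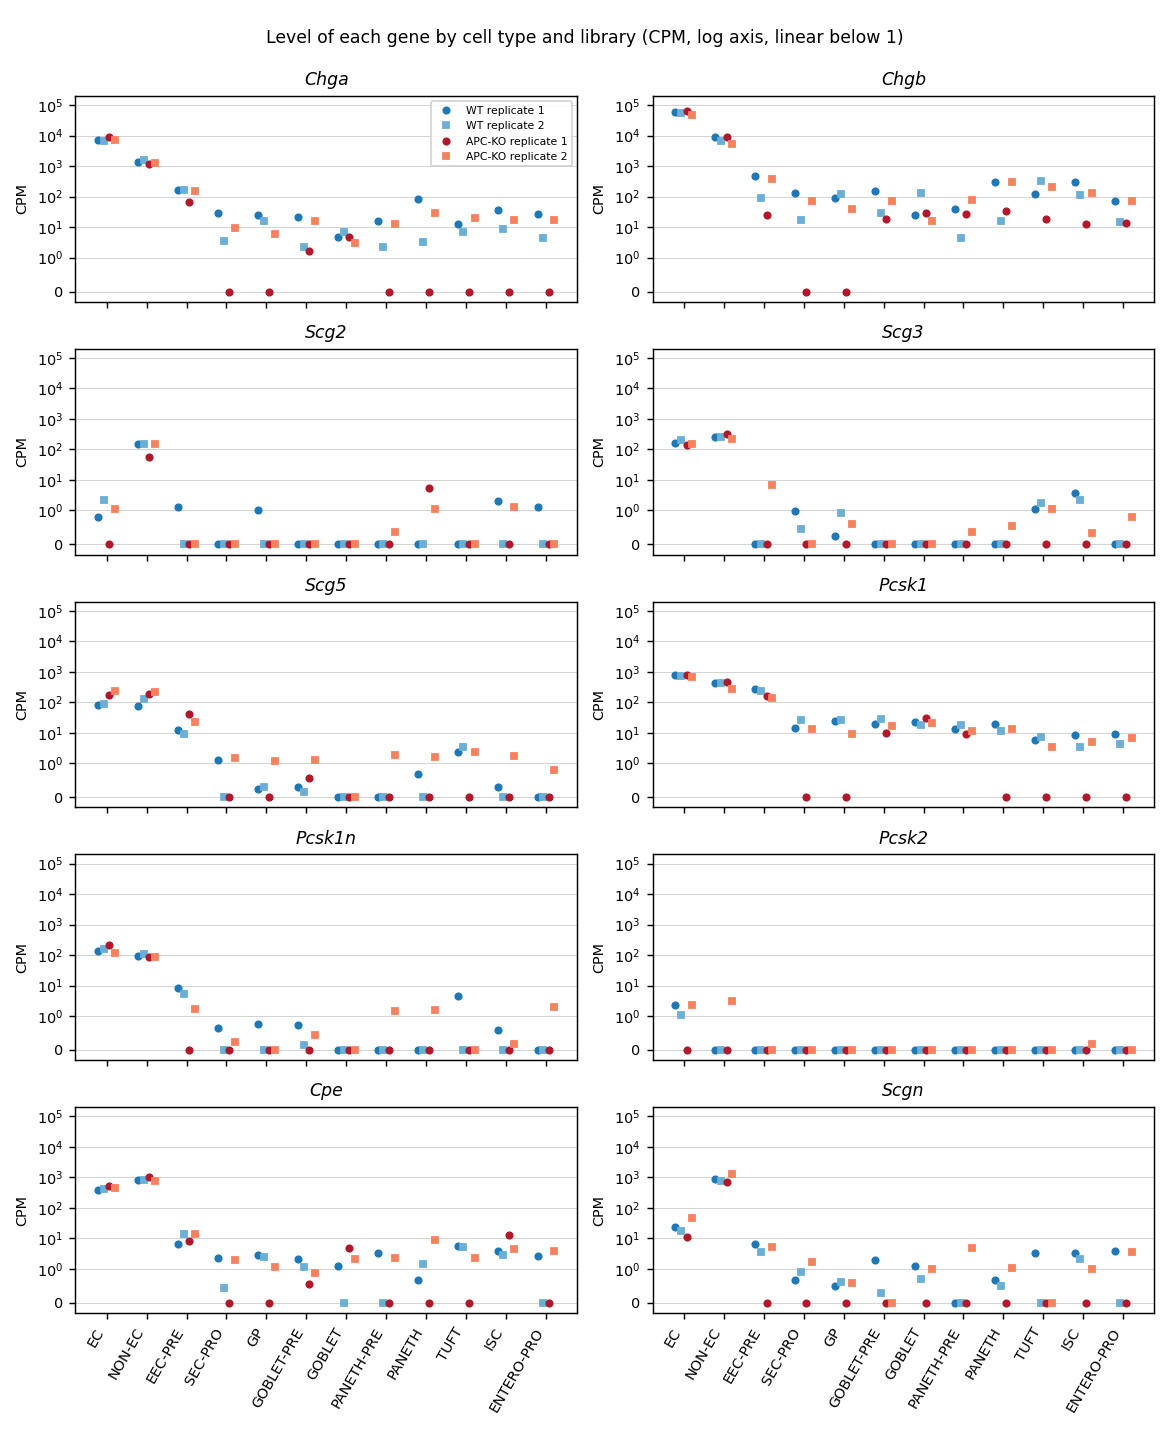
Level of each of the 10 genes in CPM (log axis, linear below 1) in the 12 cell types, with 1 point per library; blue points are WT and red points APC-KO. The 3 endocrine types stand at the left. Levels are highest in EC or NON-EC, Scg2 and Scgn are highest in NON-EC, and Pcsk2 is near 0 in every type. EEC-PRE overlaps types outside the endocrine ones for several genes, Chgb among them.

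Scg2, encoding secretogranin II, was close to absent from EC cells. Its EC sums held 1, 2, 0 and 1 UMIs in WT replicate 1, WT replicate 2, APC-KO replicate 1 and APC-KO replicate 2, and its NON-EC sums 159, 105, 4 and 95. NON-EC levels were 151, 153, 57.1 and 151 CPM in that order, with the 13 cells of APC-KO replicate 1 below the others. Over all libraries, 363 UMIs in NON-EC against 4 in EC gave a level 124 times higher in NON-EC (95% interval 48.0 to 458, covering counting error only). Scgn had the same direction, at 892, 736, 714 and 1264 CPM in NON-EC and 23.2, 17.1, 10.98 and 47.8 CPM in EC. EC was lower by a log2 ratio of -5.36 ± 0.53 (SD, n = 4), and the ranges did not overlap.

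Scg3, a granin that binds other granins and cholesterol-rich granule membranes, differed less between the types. It stood at 167, 199, 143 and 156 CPM in EC and at 247, 256, 328 and 224 CPM in NON-EC. The log2 ratio of EC to NON-EC was -0.66 ± 0.37 (SD, n = 4), and NON-EC was higher in 4 of 4 libraries. Scg5 was the only gene of the 9 with counts whose EC and NON-EC ranges overlapped, at 82.2 to 239 CPM in EC and 77.7 to 217 CPM in NON-EC. Its log2 ratio was -0.10 ± 0.33 (SD, n = 4), with EC higher in 2 libraries and lower in the other two.

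Among the processing enzymes, Pcsk1 was higher in EC and Cpe in NON-EC. Pcsk1 stood at 805, 714, 787 and 696 CPM in EC and at 444, 436, 457 and 271 CPM in NON-EC, a log2 ratio of 0.93 ± 0.29 (SD, n = 4). Cpe stood at 390, 410, 505 and 460 CPM in EC and at 846, 850, 1000 and 778 CPM in NON-EC. Its log2 ratio of -0.98 ± 0.16 had the smallest SD of the genes compared. Pcsk1n was at 120 to 212 CPM in EC and 85.7 to 108 CPM in NON-EC, a log2 ratio of 0.74 ± 0.38 (SD, n = 4).

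Pcsk2 was barely detected. All kept cells together held 9 Pcsk2 UMIs, of which 6 were in EC and 2 in NON-EC cells, while the endocrine cells held 3912 Pcsk1 UMIs. No library had more than 5. Its EC level was at most 2.40 CPM. For the count of 0 in EC cells of APC-KO replicate 1 the limit was 10.98 CPM, set at 3 counts and covering counting error only. Scg5, the chaperone of the Pcsk2 product, was counted in sums where Pcsk2 was at or under the limit of 3 counts per library. The antisense genes Pcsk2os1 and Pcsk2os2 overlap Pcsk2, as Eras overlaps Pcsk1n, Gm37871 overlaps Scg3 and Gm11339 overlaps Scgn, and the strand setting of the counting is not given in the sources used here.

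**Figure D2:**
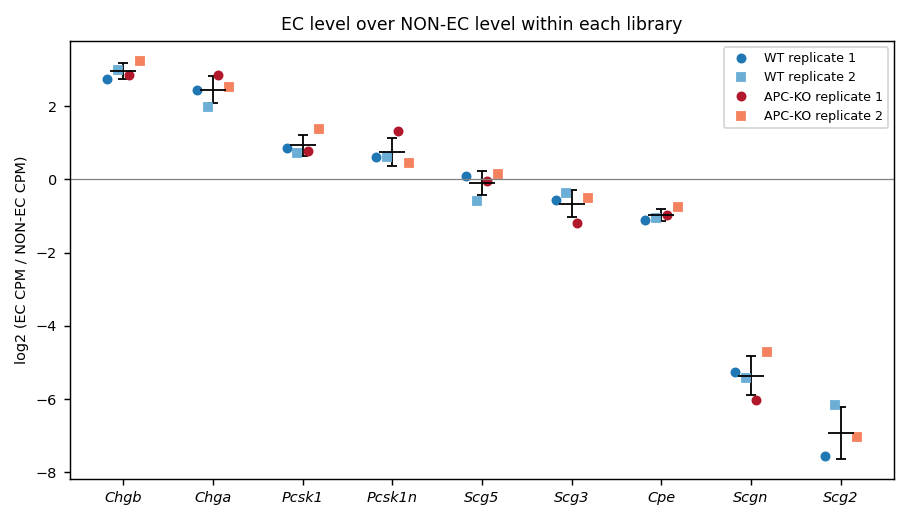
Log2 ratio of the EC level to the NON-EC level in the same library for the 9 genes with counts in both types in at least 3 libraries; points are libraries, the bar is the mean and the whiskers the SD over libraries. Chgb, Chga, Pcsk1 and Pcsk1n lie above 0 in all 4 libraries, Scg3, Cpe, Scgn and Scg2 below 0, and Scg5 on both sides.

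In EEC-PRE cells, the precursor type, Pcsk1 stood out from the other genes. Pcsk1 was at 281, 236, 160 and 138 CPM in WT replicate 1, WT replicate 2, APC-KO replicate 1 and APC-KO replicate 2, which is 26.1% of its EC level as a mean over log2 ratios (log2 -1.94 ± 0.44, SD, n = 4). Chga was at 164, 166, 67.3 and 156 CPM, or 1.74% of its EC level. Chgb was at 477, 88.2, 25.2 and 381 CPM, or 0.247%, with a spread between libraries of 2.09 (SD on the log2 scale). These Chgb levels overlapped those of PANETH (15.9 to 304 CPM), TUFT (18.9 to 318 CPM) and ISC (13.2 to 312 CPM). Pcsk1 was thus higher than Chga in 3 of 4 libraries, WT replicate 1 and WT replicate 2 and APC-KO replicate 1, and higher than Chgb in WT replicate 2 and APC-KO replicate 1 alone. The Chgb of this type lay in few cells: 3, 4, 1 and 3 cells held at least 50% of its UMIs in the same order of libraries. For Chga these were 8, 6, 1 and 7 cells, and for Pcsk1 29, 21, 2 and 18. In APC-KO replicate 1 the values rest on 3 Chgb UMIs and 8 Chga UMIs.

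The remaining genes were low in EEC-PRE. Scg5 was at 9.0 to 42.1 CPM, or 13.6% of its EC level, from 5 to 13 UMIs per library. Cpe was at 6.73 to 14.4 CPM, or 2.35% of its EC level. Pcsk1n reached at most 8.08 CPM, Scgn 6.73 and Scg3 7.0, Scg2 had 1 UMI in all and Pcsk2 none. After thinning to 2000 UMIs, a median over libraries of 29.1% of EEC-PRE cells had a Pcsk1 UMI, against 13.9% for Chga and 8.62% for Chgb (505 cells). The matching share of Pcsk1 in ISC cells was 1.21%. Without thinning, 28.9% to 54.0% of EEC-PRE cells in a library had a Pcsk1 UMI.

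The endocrine types held 94.6% to 99.8% of the Chga UMIs of a library, 94.7% to 99.7% of Chgb, 96.3% to 100% of Scg3 and 95.6% to 100% of Scgn. For Pcsk1 the share was lower, 72.9% to 91.4%. GOBLET sums held Pcsk1 at 17.7 to 29.4 CPM and GOBLET-PRE sums at 10.1 to 28.4 CPM, while TUFT and ISC sums reached 7.07 and 8.17 CPM at most. Free RNA, taken from barcodes with 1 to 50 UMIs, held 1.80 to 3.10 Pcsk1 UMIs per 100 Chgb UMIs. GOBLET sums held 13.9 to 125 per 100 and GOBLET-PRE sums 12.6 to 93.8 per 100.

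The Pcsk1 counted in a sum was set beside the amount that free RNA would bring if all Chgb there were free RNA. It was 6.47 to 66.3 times that amount in GOBLET, 6.98 to 43.7 times in GOBLET-PRE, and 7.71 to 186 times in PANETH-PRE. It was 0 to 33.9 times in PANETH, with 2.37 and 3.63 in APC-KO replicate 2 and WT replicate 1, 0 to 13.3 times in ENTERO-PRO, 0 to 2.52 times in TUFT and 0 to 1.90 times in ISC. The values of 0 are all from APC-KO replicate 1, and the part of free RNA in these levels was not tested. The PANETH-PRE values rest on 1 to 31 UMIs per library. Over the 9 other types, 914 of 12956 cells (7.05%) had a Pcsk1 UMI, of which 794 had a single one, and 789 of the 914 had no Chgb UMI. The highest count in 1 such cell was 5. In some sums 1 cell held most of the Chgb, 92.8% of the UMIs in GOBLET of WT replicate 2 and 91.2% in PANETH of WT replicate 1. Whether such droplets held more than 1 cell was not tested.

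**Figure D3:**
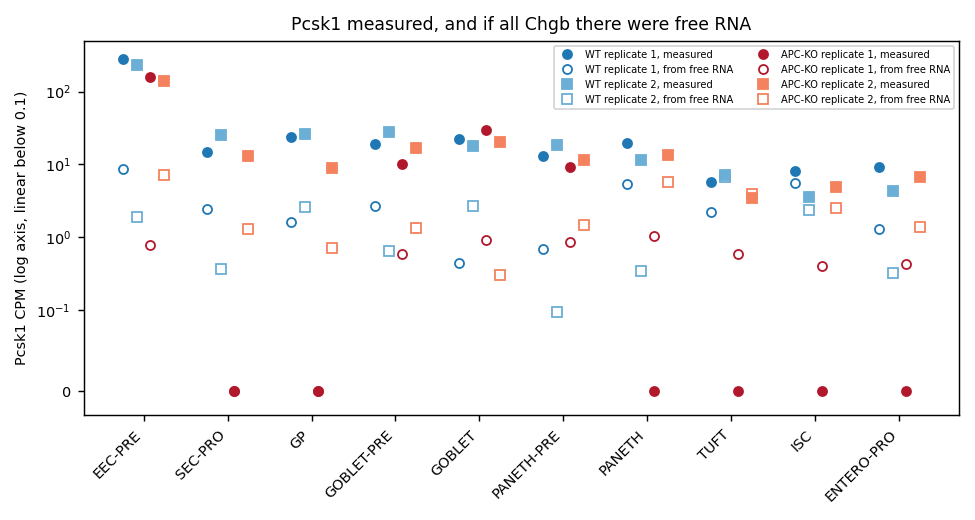
Pcsk1 level in CPM (log axis, linear below 0.1) in the types other than EC and NON-EC; filled points are measured and open points are what free RNA would bring if all Chgb in that sum were free RNA, with 1 pair per library. Filled points lie above open ones in EEC-PRE, GOBLET-PRE, GOBLET and PANETH-PRE in all 4 libraries, and close to them in TUFT in APC-KO replicate 2 and WT replicate 2.

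Within NON-EC, granin levels differed with the peptide a cell carried. NON-EC cells with at least 5 peptide UMIs, at least 50% of them from 1 peptide gene, were grouped by that gene, a grouping chosen after the data had been seen. It placed 236 of 305, 143 of 188 and 148 of 217 cells in WT replicates 1 and 2 and APC-KO replicate 2, and the classes of Ghrl, Cck, Gip and Sct had at least 10 cells in each. APC-KO replicate 1 had no class of that size and was left out here. The classes are cuts of a continuous share, and no test was made.

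Cells dominated by Ghrl, the ghrelin gene, had low Chgb and high Chga. Their Chgb was at 1416, 664 and 955 CPM in WT replicates 1 and 2 and APC-KO replicate 2. Cells dominated by Gip, the gene of the incretin GIP, had Chgb at 18618, 16240 and 12271 CPM, and those dominated by Sct, the secretin gene, at 19641, 21852 and 12777 CPM. Cck cells lay between, at 13947, 6092 and 7015 CPM. Chga ran the other way, at 2096, 2415 and 2044 CPM in Ghrl cells against 586, 250 and 239 CPM in Gip cells. In Ghrl cells Chga exceeded Chgb in each of the 3 libraries, opposite to the order in EC sums.

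Other members also varied with the peptide. Scg2 was at 512, 651 and 209 CPM in Cck cells and at 337, 422 and 179 CPM in Gip cells. In Ghrl cells Scg2 was at 23.9 and 14.5 CPM (WT) and 209 CPM (APC-KO replicate 2), the 3 values resting on 10, 4 and 42 UMIs. Pcsk1n was at 32.6 to 79.6 CPM in Ghrl cells and 141 to 191 CPM in Gip cells. Pcsk1 was at 413 to 518 CPM in Ghrl cells and 203 to 219 CPM in Gip cells, the reverse of Pcsk1n. Cpe was at 580 to 746 CPM in Ghrl, 993 to 1300 in Gip and 1107 to 1935 CPM in Cck cells. Scgn was high in each class, at 566 CPM or more.

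**Figure D4:**
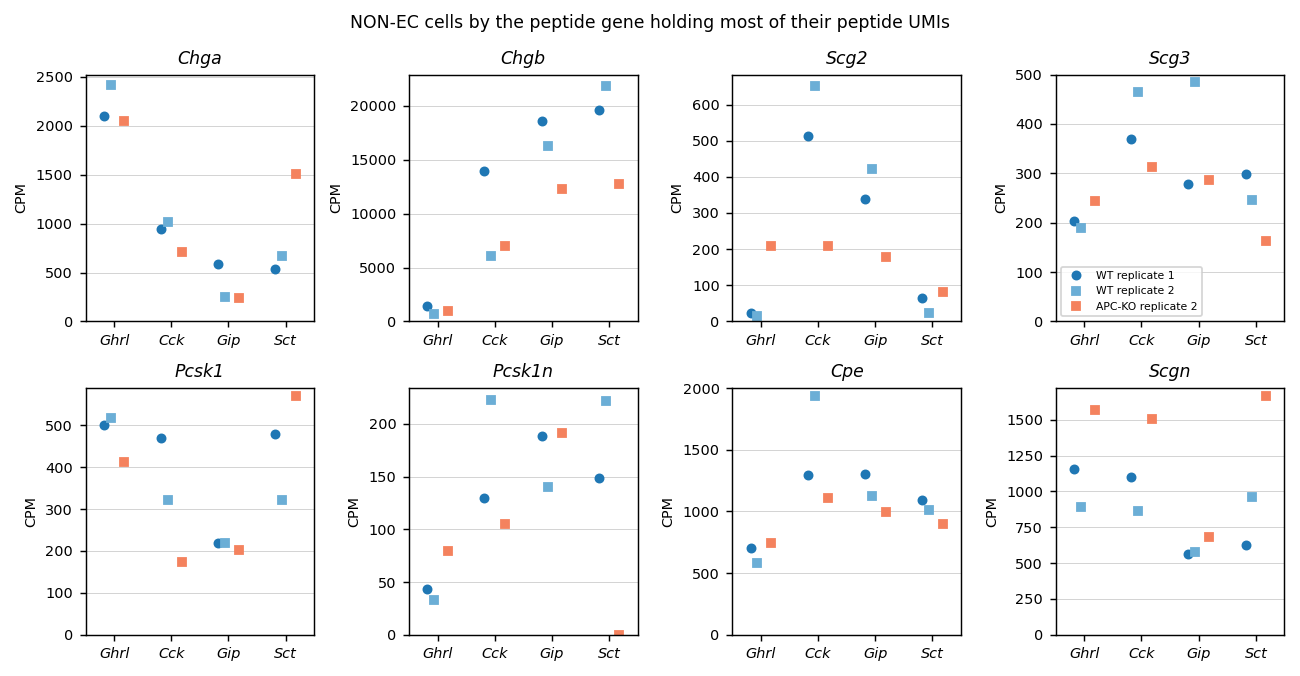
Level in CPM of 8 genes in NON-EC cells grouped by the peptide gene that holds most of their peptide UMIs, with 1 point per library (both WT libraries and APC-KO replicate 2). Chgb is lowest and Chga highest in the Ghrl class in each library, and Scg2 is high in the Cck and Gip classes.

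Genotypes were then compared within each type with edgeR's quasi-likelihood test on the sums of the 4 libraries and Benjamini-Hochberg adjustment at 0.05 over all genes tested. None of the 10 genes passed in EC, NON-EC, EEC-PRE or the 3 types summed. At an unadjusted edgeR p under 0.05 stood Scg5 in each, and Pcsk1 in EEC-PRE. For NON-EC and EEC-PRE the count over all genes at such a p is not given here. The members there were therefore not read as a difference from other genes. In EC, 0% of 8690 genes passed, with 729 at an unadjusted p under 0.05, and the DESeq2 Wald test passed 13, including Scg5. In NON-EC 0.113% of 7959 genes passed (0.0628% upward in APC-KO) and in EEC-PRE 0.654% of 6573 (0.548% upward). In the 3 endocrine types summed together 0% of 10533 passed, with 913 at an unadjusted p under 0.05 and 24 by DESeq2. In such sums, fewer molecules per cell and fewer cells with the gene cannot be told apart.

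Scg5 had the largest fold change of the genes in EC, and its levels in the genotypes did not overlap in any endocrine type. In EC, WT libraries stood at 82.2 and 85.5 CPM, APC-KO replicates 1 and 2 at 179 and 239 CPM. NON-EC levels were 77.7 and 128 CPM against 186 and 217 CPM. The 186 CPM of APC-KO replicate 1 rests on 13 UMIs in 13 cells, of which 2 cells held at least 50%. EEC-PRE levels were 12.1 and 9.0 CPM against 42.1 and 22.7 CPM. The 42.1 CPM of APC-KO replicate 1 rests on 5 UMIs in 15 cells, of which 1 cell held 4. Each APC-KO library was above each WT library in all 3 types. Levels higher in APC-KO without overlap were found for 14.6% of all genes tested in EC, 13.7% in NON-EC and 9.81% in EEC-PRE, so that the separation alone does not set Scg5 apart.

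The Scg5 difference was 1.43 (SE 0.20) on the log2 scale in EC, with an edgeR adjusted p of 0.0989 and an unadjusted p of 3.4e-05. It was 1.16 (SE 0.25, edgeR adjusted p 0.126) in NON-EC and 1.41 (SE 0.58, edgeR adjusted p 0.427) in EEC-PRE. With the 3 types summed it was 1.29 (SE 0.18, edgeR adjusted p 0.108). A log2 fold change of 1 or more was reached by 2.03% of the genes tested in EC, 2.4% in NON-EC, 2.65% in EEC-PRE and 2.16% in the 3 types summed. The difference in NON-EC less that in EC was -0.34 (SE 0.25, edgeR adjusted p 0.998), in a test that passed 0.15% of 9335 genes. Dropping APC-KO replicate 1 moved the Scg5 difference in EC to 1.55, and dropping replicate 2 of that genotype moved it to 1.18. Each such fit had 1 APC-KO library left, which was assumed to vary like the WT group. Whether Scg5 passed in EC depended on the library dropped, so these fits are read for their effect size only.

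**Figure D5:**
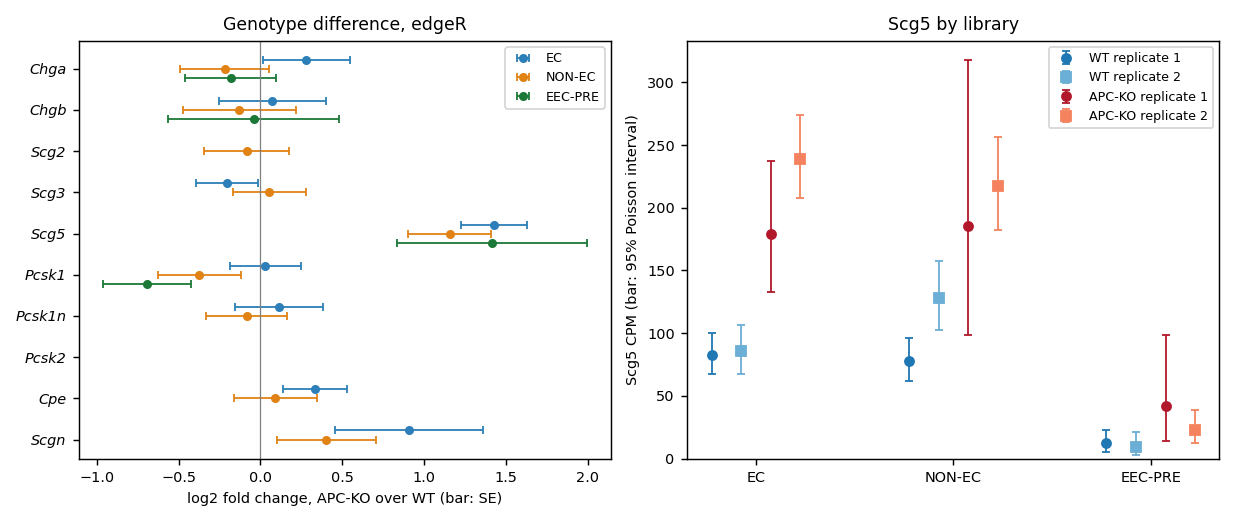
Left, log2 fold change of APC-KO over WT with its SE for each gene tested in EC, NON-EC and EEC-PRE. Right, Scg5 level in CPM in each library and type with its 95% interval (exact binomial, labelled Poisson on the axis), which covers counting error only. Scg5 lies between 1.16 and 1.43 in all 3 types, and both APC-KO libraries lie above both WT libraries.

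The granins Chga and Chgb differed between genotypes by less than the test could separate. Chga differed by 0.28 (SE 0.27) in EC and by -0.22 (SE 0.27) in NON-EC, and Chgb by 0.07 (SE 0.33) and -0.13 (SE 0.34), on the log2 scale. Pcsk1 in EEC-PRE was lower in both APC-KO libraries than in both WT libraries, by -0.69 (SE 0.27, edgeR adjusted p 0.388), while 30.2% of the genes tested there were lower without overlap. Scgn in EC differed by 0.91 (SE 0.45, edgeR adjusted p 0.625), but its APC-KO libraries, at 10.98 and 47.8 CPM, lay on either side of the WT libraries. Without APC-KO replicate 1 Scgn differed by 1.26 in EC and by 0.61 in the summed endocrine cells. Without APC-KO replicate 2 Scgn differed by -1.17 and Scg2 by -2.43 in the summed cells. Chgb in EEC-PRE then differed by -3.36, when 15 cells stood for the genotype. NON-EC made up 17.8% of the endocrine cells of APC-KO replicate 1, against 34.2% and 32.0% in WT replicates 1 and 2 and 29.9% in APC-KO replicate 2. In NON-EC sums Scgn was at 714 CPM in APC-KO replicate 1, against 736 and 892 CPM in the WT libraries. All kept cells of APC-KO replicate 1 held 5 Scg2 UMIs. The part of this mix of types in the summed values was not tested. The interaction was -0.35 for Chgb without APC-KO replicate 1 and -0.82 for Chga without APC-KO replicate 2. Each of these fits left 1 APC-KO library, and neither gene passed in the main interaction.

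Over the genes tested, 7 of 8 were higher in APC-KO in EC (median log2 fold change 0.20, against -0.002 over all genes, of which 49.8% were higher). By the mean CPM of the libraries 5 of the 8 were higher, since Chgb (57605 against 57657 CPM in WT) and Pcsk1 (741 against 759 CPM) changed sides. In NON-EC 4 of 9 were higher (-0.08 against -0.01, with 48.9% of all genes higher) and in EEC-PRE 1 of 4 (-0.11 against 0.003, with 50.3%). Scg2 and Pcsk2 were too low to be tested in EC, Pcsk2 in NON-EC, and 6 of the 10 in EEC-PRE.

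Scg5 lies on chromosome 2 at 113776362 to 113829121 (GRCm38, minus strand). Of its annotated neighbours within 300000 bases, Fmn1, Arhgap11a and Aqr were high enough to be tested in the summed endocrine cells. Their log2 fold changes were -0.16 (SE 0.23), 0.24 (SE 0.33) and 0.28 (SE 0.20), and none passed.

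Other genes of the pathway were taken from 4 lists. Of 17 other convertases and trimming enzymes, 10 could be tested in EC, 10 in NON-EC and 5 in EEC-PRE, and none passed edgeR's test (0, 0 and 1 at an unadjusted p under 0.05). Their median log2 fold changes were 0.18, -0.13 and -0.06. Pam, which amidates peptide ends, was the highest of them in WT, at a mean of 279 CPM in EC, 556 in NON-EC and 0.900 in EEC-PRE. It was followed by Dpp4, which trims incretins, at 143, 178 and 23.4 CPM. The lysosomal protease genes Ctsl and Ctsb varied less, at 94.4, 132 and 95.1 CPM and at 117, 138 and 67.0 CPM. None of the 18 granule genes passed either, among 15, 11 and 9 tested by edgeR, with 3, 1 and 0 at an unadjusted p under 0.05 (medians 0.06, -0.17 and 0.04). The highest, Cystm1, Ptprn2, Ica1 and Slc18a1, had WT means of 1075, 406, 122 and 199 CPM in EC. Ptprn2 is a granule membrane protein and Slc18a1 loads monoamines into granules.

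Of 29 genes of regulated release, 26, 24 and 13 were tested and none passed edgeR's test, with 1, 2 and 1 at an unadjusted p under 0.05 (medians 0.06, -0.03 and -0.35). The highest were Cacna1a, a calcium channel subunit, Cplx2, Rph3al and Kcnb2, at WT means of 632, 383, 169 and 182 CPM in EC. Cacna1a and Rph3al were at 440 and 266 CPM in WT EEC-PRE, where Pam was at 0.900 CPM. Of 20 peptide genes, 7, 10 and 3 were tested by edgeR, with 3, 4 and 1 at an unadjusted p under 0.05 (medians 0.55, 0.06 and -0.19). Among these types, the main count over all genes at such a p is given above for EC alone. The counts of the 4 lists were therefore not read as a difference from other genes. One passed: Cck, the cholecystokinin gene, rose in EEC-PRE of APC-KO, from 105 and 52.2 CPM (WT) to 193 and 170 CPM (APC-KO), by 1.27 on the log2 scale (SE 0.29, edgeR adjusted p 0.0388), in a comparison where 0.548% of all genes passed upward. It did not pass without WT replicate 1 or without WT replicate 2, where 0 genes passed edgeR's test and 164 and 81 had an unadjusted p under 0.05. The most abundant were Ghrl, Sct, Cck and Gip, with WT means of 15385, 2012, 5932 and 4638 CPM in NON-EC, and Sct was at 4152 CPM in EC.

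Across 39 sums of at least 20 cells, the genes most like each member were found by Pearson's r of log2(CPM + 1) among 9968 genes. The sums share libraries, depth and the split of endocrine from other cells, so these values describe the data and were not tested. Chga was most like Lhx1 (0.97) and Snap25 (0.96), Chgb like Map1b (0.94) and Rab3c (0.94), and Pcsk1n like Ap3b2 (0.98) and Snap25 (0.97). Scg2 was most like Gcg (0.96) and Fxyd2 (0.95), Scg3 like Srrm3 (0.97) and Pax6 (0.97), and Scgn like Onecut3 (0.94) and Sphkap (0.93). Scg5 was most like Tmed8 (0.97) and Hmgn3 (0.96), Cpe like Cadps (0.97) and Gng4 (0.97), and Pcsk1 like Kcnh6 (0.95) and Kcnc1 (0.95). Among the members themselves, r ran from 0.50 between Scg2 and Pcsk1 to 0.96 between Pcsk1n and Cpe.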

How the data were processed

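Single-cell 3' libraries (10x Genomics v3.1) from 2 WT and 2 APC-KO samples were used as deposited by the authors: unfiltered UMI counts per gene and barcode, and per-cell tables giving UMI and gene counts, mitochondrial percent and other values (library and cell type names). Per the submitters' processing notes the tools were Cell Ranger 3.0.2 and STAR and the build mm10. In the deposited tables every cell has more than 900 but fewer than 3000 genes, and its mitochondrial share lies below 7%. How types were named, how doublets were treated and the strand setting are not given in the sources used here.

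UMIs of kept cells were summed per library and type. Sums with at least 10 cells in each library were tested by edgeR 4.0.16 under R 4.3.3 (TMM factors, filterByExpr, quasi-likelihood test, Benjamini-Hochberg adjustment at 0.05), which was tested on simulated data first. The interaction of type and genotype used EC and NON-EC sums with the library as a block. Alternatives were DESeq2 1.42.0 size factors and Wald test, no filter beyond 1 count, cells of at least 2000 UMIs thinned to 2000, 5% of each sum removed as free RNA with the profile of barcodes holding 1 to 50 UMIs, the replicate number as a block, and each library left out. A crossed block was added after the data had been seen.

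Gene positions came by gene ID from GENCODE vM21 (GRCm38, the build named mm10), which matched 30934 of 31053 IDs, and promoters by symbol from RefSeq. The 10 genes, the gene lists and the tests were chosen with earlier results of these data known. Beyond the 10 genes, the text names the 4 genes of each list with the highest WT mean over the 3 endocrine types, list genes past the threshold, and the 2 genes most like each member among those with a mean of at least 5 CPM, without model symbols. The peptide classes, the left-out barcodes and the neighbours of Scg5 were looked at after the data had been seen. Counting intervals are exact 95% binomial intervals.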

Additional observations from a re-analysis of the deposited data

Results flagged for a closer look

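Barcodes that the authors left out also held Scg5. Among barcodes with 3000 genes or more, under 7% mitochondrial UMIs and at least 3 Tph1 UMIs, Scg5 was at 15.7 and 15.6 CPM in WT replicates 1 and 2 (29 and 20 barcodes) and at 112 and 38.8 CPM in APC-KO replicates 1 and 2 (36 and 23 barcodes). These values rest on 5, 4, 45 and 12 UMIs. In the same barcodes other members were also higher in APC-KO replicate 1 than in WT: Chgb was at 47072 CPM against 21149 and 18626, Pcsk1 at 513 against 254 and 234, Scg3 at 183 against 50.3 and 62.4, and Cpe at 357 against 201 and 148. In APC-KO replicate 2 these 4 genes were below both WT libraries, at 11903, 133, 25.9 and 80.8 CPM. Among barcodes with 7% or more mitochondrial UMIs and at least 3 Tph1 UMIs, Scg5 was at 54.0 and 54.1 CPM in WT (32 and 25 barcodes) and at 136 CPM in APC-KO replicate 2 (19 barcodes), while APC-KO replicate 1 had 7 such barcodes and gave no value. Over all left-out barcodes with 7% or more mitochondrial UMIs, whatever their Tph1, Scg5 was at 2.06 and 1.47 CPM in WT and at 1.92 and 3.91 CPM in APC-KO, so the groups overlapped there. Over all left-out barcodes with 3000 genes or more and under 7%, Scg5 was at 2.15 and 1.33 CPM in WT. In APC-KO replicates 1 and 2 it was at 4.27 and 7.28 CPM there, without overlap. The values with Tph1 stand here because they lie outside the cells compared above and exceed the WT level, so that choice set their direction. The minimum of 3 Tph1 UMIs was chosen after the data had been seen, and the differences were not tested.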

How the results depend on the processing

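The number of the 10 genes past the threshold was 0 in each main comparison. It became 1 in EC under the DESeq2 Wald test, with no filter and after thinning, 1 in NON-EC with no filter, and 1 in the summed endocrine cells under those 3 settings, each time Scg5. Leaving out 1 library gave 0 to 2 in EC, 0 to 1 in NON-EC, 0 to 1 in EEC-PRE, 0 to 3 in the summed cells and 0 to 1 for the interaction, with a remaining lone library assumed to vary like the other group. The Scg5 fold change kept its direction under every setting run, and the cause of the changed calls was not tested. After thinning, the log2 ratio of EC to NON-EC moved from -0.66 to -1.04 for Scg3. For Scg2 it was -6.92 over 3 libraries with counts and -6.14 after thinning over 2, both WT. The Scg2 values thus cover unlike sets of libraries.

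The labels do not say that replicate numbers pair libraries, and same-numbered libraries deviated with a correlation of -0.053 in EC, -0.040 in NON-EC, -0.068 in EEC-PRE and -0.134 in the summed cells. With the replicate block the summed cells gave 1 member, Scg5, and 17 genes in all. With crossed numbers, added after the data had been seen, they gave 1 member and 163 genes. The block gave 3 genes in NON-EC.

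Small fold changes changed sign. Pcsk1 became -0.015 in EC with no filter, and in the summed cells -0.037 with no filter, -0.022 after thinning, -0.0027 with free RNA subtracted, -0.0052 with the replicate block and -0.012 with crossed numbers. Cpe became -0.021 after thinning both in NON-EC and in the summed cells. Chgb in EEC-PRE became 0.10 with free RNA subtracted and 0.12 with the replicate block. Scgn in the summed cells became -0.0052 under the DESeq2 Wald test, -0.14 with the replicate block and -0.15 with crossed numbers. Pcsk1n in the interaction became 0.013 with DESeq2 size factors and 0.0028 with no filter.

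Leaving out 1 library turned signs as well. In EC the range was -0.18 to 0.27 for Chgb, -0.09 to 0.15 for Pcsk1, -0.28 to 0.59 for Pcsk1n and -0.81 to 1.26 for Scgn. In NON-EC it was -0.51 to 0.16 for Chgb, -1.43 to 0.088 for Scg2, -0.070 to 0.36 for Scg3, -0.60 to 0.027 for Pcsk1, -0.024 to 0.21 for Cpe and -0.22 to 0.73 for Scgn. In EEC-PRE it was -1.12 to 0.057 for Chga and -3.36 to 1.60 for Chgb. In the summed cells it was -0.17 to 0.71 for Chgb, -0.27 to 0.25 for Pcsk1, -0.24 to 0.64 for Pcsk1n and -1.17 to 0.61 for Scgn. In the interaction it was -0.32 to 1.67 for Scg2, -0.88 to 0.18 for Pcsk1n and -0.57 to 0.51 for Scgn.

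Counts over all genes depended more on the setting. EC gave 0 in the main comparison, 13 with DESeq2, 174 with no filter, 29 after thinning, and 401 and 102 when APC-KO replicate 1 or 2 was left out. NON-EC gave 9, against 3 with DESeq2, 141 with no filter, 5 after thinning, 1 with free RNA subtracted, and 26, 344 and 42 without WT replicate 1, APC-KO replicate 1 and APC-KO replicate 2. EEC-PRE gave 43, against 16 with DESeq2 size factors, 11 with DESeq2, 98 with no filter, 22 with free RNA subtracted, 0 without either WT library and 285 without APC-KO replicate 1. The summed cells gave 0, against 24 with DESeq2, 309 with no filter, 85 after thinning, and 12, 5, 934 and 215 without each library in turn. The interaction gave 14, against 0 with DESeq2, 6 after thinning, and 0, 4, 39 and 30 without each library. The cause of these differences in counts was not tested.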
